A study of Homo sapiens with 15 samples.

Results

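Desmosomes are the spot-like junctions that tie the keratin filaments of neighbouring epithelial cells together, and the genes described here are 10 members of that junction: DSG2, DSC2, JUP, PKP2, PKP3, PKP4, DSP, PPL, EVPL and PERP. They were found by gene symbol, 10 of the 69215 genes in the count tables, and 9 of them had enough reads to be tested. RNA was sequenced from monolayers of Caco-2, a line derived from a human colon carcinoma whose cells grow as a polarized, absorptive epithelium. The 15 libraries fall into 5 of unexposed control cells, 5 of cells given polysorbate 20 (PS20) and 5 of cells given polysorbate 80 (PS80), each emulsifier at 0.05% for 24 h. The labels name no deletion, transgene or clone for any group, and the controls received no treatment. The study's title asks how these food emulsifiers impair the gut epithelial barrier. Nothing in the labels says that replicates were separate cultures, so p-values measure the spread between these libraries, which may be technical.

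In a desmosome, the desmoglein and desmocollin cadherins of adjacent cells bind each other across the gap between membranes. Inside each cell their tails are held by the armadillo proteins plakoglobin (JUP) and the plakophilins (PKP), and these recruit desmoplakin (DSP), a plakin whose other end binds keratin. DSG2 and DSC2 are the cadherins of simple epithelia such as the intestine, and the other desmogleins and desmocollins belong mainly to stratified epithelia such as skin. Periplakin (PPL) and envoplakin (EVPL) are related plakins known from the cornified envelope and from desmosome borders, and PERP is a small membrane protein with several membrane spans that desmosome assembly needs in skin.

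Total counts per library ranged from 4183096 to 42271053, control between 4183096 and 13616301, PS20 between 6749086 and 17251564, PS80 between 6769409 and 42271053. Levels are given as CPM, read counts relative to the library total after scaling by edgeR's trimmed mean of M-values. Replicates 1 and 2 differed from replicates 3 to 5 in some members in every group, and no label names a batch. DSC2 averaged 46.4 and 54.5 CPM in the 2 sets in control, 46.8 and 52.4 with PS20, and 36.8 and 47.7 with PS80. PS80 replicates 1, 3, 4 and 5 were counted with another version of the counting program (2.0.3) than all other libraries (2.0.0), so for those 4 the separate counting and the exposure cannot be told apart. The epithelial identity of the cells showed in EPCAM, which lay between 845 and 1060 CPM in the 15 libraries, and in all 8 epithelial and enterocyte markers passing the filter on low counts. These 8 were not level across groups: with PS20 4 were lower (KRT8, KRT18, KRT19 and the microvillus protein villin, VIL1, the last with a log2 fold change of -0.29) and 2 were higher (CDH1 and the intestinal transcription factor CDX2, the last with 0.37), and with PS80 1 was higher (CDX2) and 0 were lower. Their sum was 10330 to 12140 CPM in control, 8723 to 9407 in the PS20 libraries and 10720 to 11240 in the PS80 libraries, and the part of that shift in the desmosome results was not tested. VIL1 shares 44.19% of its exon bases with other genes. Of the markers of other cell types, fibroblast DCN and COL1A2 had at most 1 read in a library, haemoglobin HBB and keratinocyte IVL had 0, and keratinocyte KRT5 and KRT14 had at most 2 and 1. Others were read: fibroblast COL1A1 and COL3A1 averaged 100.3 and 18.3 CPM and keratinocyte KRT10 16.03 CPM, and of these KRT10 was lower with PS80 than with PS20 (-0.41, adjusted p = 0.0348 by edgeR). Of 6 fibroblast markers 4 were tested, PDGFRB was lower with both emulsifiers (-1.01 and -0.85 on the log2 scale), and the 6 summed to between 137 and 159.7 CPM (control), 129 and 149.9 CPM (PS20) and 120.3 and 170.1 CPM (PS80). Of 4 endothelial markers 1 was tested, PECAM1, which was higher with PS80 (0.56), and the 4 summed to between 4.29 and 11.8 CPM (control), 10.1 and 13.7 CPM (PS20) and 11.2 and 16.2 CPM (PS80). The part of PDGFRB, PECAM1 and KRT10 in the results was not tested.

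With PS20, mRNA of DSG2 rose and mRNA of PKP2, PKP4, PERP, PPL and DSP fell, while DSC2, JUP and PKP3 did not pass the test. With PS80, DSG2 and PKP3 rose and PERP, PKP2 and PKP4 fell. Calls were made by edgeR's quasi-likelihood test on the counts over all 12769 tested genes, and a gene passed where its p, adjusted by Benjamini and Hochberg's method for the number of genes, was under 0.05. With PS20 6 of the 9 tested members passed, 1 higher and 5 lower, against 48.3% of all tested genes (24.4% higher and 23.9% lower). With PS80 5 of the 9 passed, 2 higher and 3 lower, against 33.4% (17.4% higher and 16.0% lower). The count with PS80 was 3 without control replicate 4, without control replicate 5 or without PS80 replicate 1, and 2 in replicates 1 and 2 alone. The PS20 and control libraries did not overlap in 6 of the 9 members, 1 higher and 5 lower, against 32.5% of all tested genes (16.2% higher and 16.3% lower). The PS80 and control libraries did not overlap in 3, 1 higher and 2 lower, against 19.6% (10.3% higher and 9.30% lower). The median log2 fold change of the 9 members was -0.27 with PS20 and -0.073 with PS80, and that of all tested genes was 0.011 and 0.002. Both comparisons use the same 5 control libraries. In these bulk samples a smaller share of cells that express a gene and less RNA per cell cannot be told apart.

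**Figure D1:**
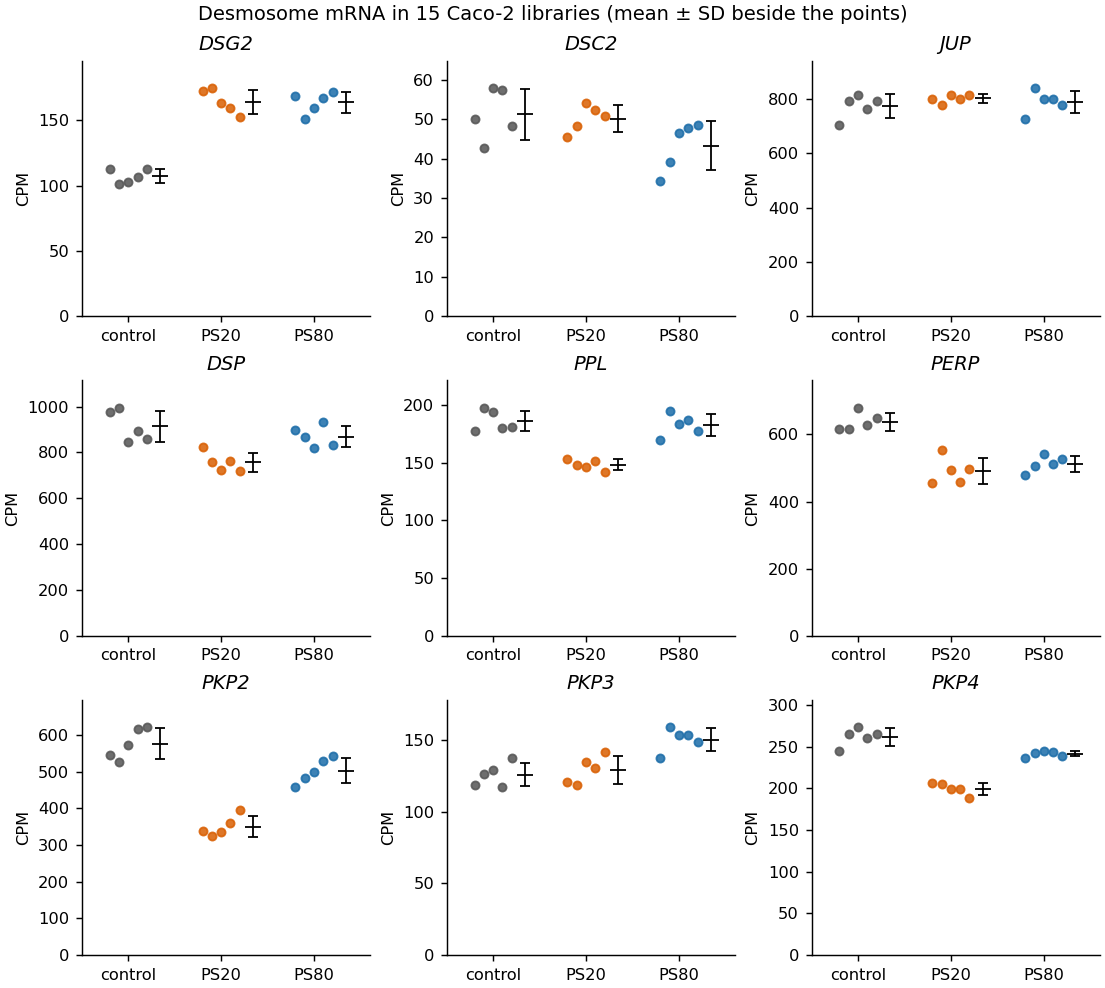
The vertical axis of each panel is the level of a member in CPM and starts at 0, each point is 1 of the 15 libraries, and the mean ± SD of a group stands beside its 5 points. DSG2 sits at 101 to 113 CPM in control and above 151 in every exposed library, and PKP2 sits below 395 with PS20 and above 459 in every other library.

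Promoters are printed for the member that rose with both emulsifiers (DSG2), for the member that fell furthest with PS80 (PERP) and for a plakin and a plakophilin that fell with PS20 (DSP and PKP4). They are RefSeq sequences of GRCh38.p14, each 300 bases long from 250 before to 50 after an annotated start, and 6 of the 10 members matched an entry. DSG2 is chr18:31497927-31498226 on the plus strand, PERP chr6:138107370-138107669 on the minus strand, DSP chr6:7541421-7541720 on the plus strand and PKP4, the first of its 2 listed starts, chr2:158456702-158457001 on the plus strand. Each reads 5′ to 3′ along its gene, and capitals mark every match, on either strand, to the GC box GGGCGG, the CCAAT box CCAAT, the AP-1 site TGANTCA and the E-box CAGGTG.
DSG2: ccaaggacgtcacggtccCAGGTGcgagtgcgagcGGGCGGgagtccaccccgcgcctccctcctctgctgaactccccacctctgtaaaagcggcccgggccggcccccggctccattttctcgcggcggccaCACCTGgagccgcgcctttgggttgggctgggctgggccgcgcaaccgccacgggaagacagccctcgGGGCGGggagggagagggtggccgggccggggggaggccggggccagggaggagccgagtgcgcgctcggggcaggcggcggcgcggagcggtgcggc
PERP: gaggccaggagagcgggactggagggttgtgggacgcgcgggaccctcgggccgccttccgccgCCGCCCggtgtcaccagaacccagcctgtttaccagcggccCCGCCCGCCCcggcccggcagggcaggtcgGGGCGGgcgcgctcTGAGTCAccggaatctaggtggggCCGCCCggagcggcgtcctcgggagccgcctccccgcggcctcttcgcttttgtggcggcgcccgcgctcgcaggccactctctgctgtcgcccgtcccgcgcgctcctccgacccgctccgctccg
DSP: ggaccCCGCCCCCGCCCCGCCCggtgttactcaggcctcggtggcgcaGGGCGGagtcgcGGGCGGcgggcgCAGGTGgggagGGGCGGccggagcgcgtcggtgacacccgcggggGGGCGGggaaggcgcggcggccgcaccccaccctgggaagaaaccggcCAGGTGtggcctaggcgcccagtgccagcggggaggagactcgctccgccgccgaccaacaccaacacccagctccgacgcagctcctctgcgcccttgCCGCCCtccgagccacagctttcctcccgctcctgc
PKP4: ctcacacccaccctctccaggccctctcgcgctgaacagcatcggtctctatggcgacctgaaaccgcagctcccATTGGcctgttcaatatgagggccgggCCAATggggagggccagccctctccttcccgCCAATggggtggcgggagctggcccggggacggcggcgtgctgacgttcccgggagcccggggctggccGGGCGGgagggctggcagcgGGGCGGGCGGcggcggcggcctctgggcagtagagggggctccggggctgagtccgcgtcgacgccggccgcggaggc
The DSG2 promoter holds 2 GC boxes and 2 E-boxes, and that of DSP, whose RefSeq start lies 54 bases from the start in the count files, holds 8 GC boxes and 2 E-boxes. The PERP promoter holds 5 GC boxes and 1 AP-1 site, and that of PKP4 holds 3 GC boxes and 3 CCAAT boxes. Adjacent GC boxes overlap in DSP, PERP and PKP4. Of the 35116 promoters of this length in the table, 45.0% hold a GC box, 34.6% a CCAAT box, 20.6% this E-box and 7.71% this AP-1 site. The 4 promoters hold 36, 43, 37 and 31 CG pairs in the order printed, against a median of 14. Promoters not printed were also above this median. At its listed starts JUP holds 23 and 19 CG pairs, 3 and 0 GC boxes and 0 and 2 E-boxes. DSC2 holds 15 and 22 CG pairs, 1 and 2 GC boxes and 1 and 0 E-boxes. The other listed start of PKP4 holds 27 CG pairs, 1 GC box and 0 CCAAT boxes. A match describes the letters and is not a measured binding site.

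Of the 2 cadherins, DSG2 rose with both emulsifiers and DSC2 did not pass with either. DSG2 (ENSG00000046604.14, chr18:31498177-31549008, plus strand) encodes desmoglein 2. Its level in replicates 1 to 5 was 113, 101, 103, 107 and 113 CPM in control, 172, 174, 163, 159 and 152 CPM with PS20 and 169, 151, 159.7, 167 and 171 CPM with PS80. Every exposed library was above every control library, and the PS20 and PS80 libraries overlapped. DSG2 rose 1.53-fold with PS20, from 107 ± 5.48 to 164 ± 9.18 CPM (mean ± SD, n = 5), a log2 fold change of 0.62 ± 0.055 (SE) with adjusted p = 1.45e-08 by edgeR. With PS80 it rose 1.53-fold, to 164 ± 8.24 CPM (0.61 ± 0.054, adjusted p = 1.29e-07 by edgeR). It was the only tested member that rose with PS20, and its promoter is the first of those printed above.

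DSC2 (ENSG00000134755.18, chr18:31058840-31102522, minus strand) encodes desmocollin 2, the partner cadherin. Its level was 50.1, 42.8, 57.9, 57.4 and 48.3 CPM in control, 45.4, 48.2, 54.1, 52.3 and 50.8 CPM with PS20 and 34.2, 39.3, 46.5, 47.95 and 48.6 CPM with PS80, in replicates 1 to 5. The 3 groups overlapped, and in each the lowest library was replicate 1 or 2. The log2 difference with PS20 was -0.022 (95% interval -0.22 to 0.18, adjusted p = 0.873 by edgeR). With PS80 it was -0.24 ± 0.096, with adjusted p = 0.0556 by edgeR, just outside the threshold. With the replicate number as a block the same difference was -0.23 with adjusted p = 0.00891, and over all settings run its adjusted p ranged from 0.00891 to 0.18. It passed without control replicate 2 (0.0169), PS80 replicate 4 (0.0389) or PS80 replicate 5 (0.025), with library totals (0.0396), with no filter (0.0428), in replicates 3 to 5 alone (0.0453) and with PS80 replicate 2 as the only PS80 library (0.0446).

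Because DSG2 and DSC2 are counted in the same library, the ratio of their counts does not depend on how libraries are scaled. The log2 ratio of DSG2 to DSC2 reads was 1.07 ± 0.19 in control, 1.71 ± 0.16 with PS20 and 1.93 ± 0.22 with PS80 (mean ± SD, n = 5). No exposed library reached down to the control range of 0.83 to 1.24. Relative to control the ratio was 1.56-fold higher with PS20 and 1.81-fold higher with PS80, each with p = 0.00794 by an exact two-sided permutation test of 5 against 5 libraries, the smallest it can give, and 0.0159 adjusted over 12 such tests. Between PS80 and PS20 the ratios overlapped (difference 0.22, exact permutation p = 0.103, adjusted 0.124). Within replicates 1 and 2 the difference from control was 0.68 with PS20 and 0.92 with PS80, and within replicates 3 to 5 it was 0.61 and 0.82. Per kilobase of exon, DSG2 made up 73.4% ± 2.65 of the 2 cadherin mRNAs in control, 81.1% ± 1.71 with PS20 and 83.3% ± 1.98 with PS80 (SD, n = 5).

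DSG2 and DSC2 lie at opposite sides of the desmosomal cadherin cluster of chromosome 18, with 395655 bases between them. The cadherin genes in that interval are those of stratified epithelia, and they were nearly silent in the counts. DSG1 and DSG3 had 0 reads in all 15 libraries, and over all libraries together DSG4 had 3 reads and DSC1 had 4. DSC3, the gene beyond DSC2, had 0 to 23 reads per library. PKP1, the plakophilin of stratified epithelia, had at most 1 read in a library. None of the 7 stratified isoforms listed passed the filter, and 93.70% of the exon bases of one of them, CDSN, also lie in other genes, so its low count is not read as a level.

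Among the armadillo proteins of the plaque, PKP2 fell with PS20 in the widest step of any member and JUP did not pass in any comparison. JUP (ENSG00000173801.17, chr17:41754604-41786931, minus strand) encodes plakoglobin, which adherens junctions share. Its level was 773 ± 43.3 CPM in control, 802 ± 15.1 CPM with PS20 and 788 ± 41.1 CPM with PS80, and the 3 groups overlapped. The 95% interval of the log2 difference from control was -0.047 to 0.15 with PS20 and -0.071 to 0.13 with PS80 (adjusted p = 0.384 and 0.699 by edgeR).

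PKP2 (ENSG00000057294.17, chr12:32790745-32896777, minus strand) encodes plakophilin 2, which links desmoplakin to the cadherin tails in simple epithelia and heart. Its level in replicates 1 to 5 was 545, 528, 572, 617 and 622 CPM in control, 339, 325, 335, 359 and 395 CPM with PS20 and 459, 482, 501, 529.9 and 544 CPM with PS80. All PS20 libraries lay below all others, and PS80 libraries lay in the lower part of the control range and below it. PKP2 was 1.65-fold lower with PS20, at 350.5 ± 27.7 against 577 ± 42 CPM (-0.72 ± 0.062 on the log2 scale, adjusted p = 8.89e-09 by edgeR). With PS80 it was 1.15-fold lower, at 503 ± 34.4 CPM (-0.20 ± 0.061, adjusted p = 0.0167 by edgeR). The PS80 call was lost on leaving out any of control replicate 4 (adjusted p = 0.0553), control replicate 5 (0.0539) and PS80 replicate 1 (0.0525), with PS80 replicate 2 as the only PS80 library (0.0855) and in replicates 1 and 2 alone (0.163), over a range of 0.00031 to 0.163 in the settings run.

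PKP3 (ENSG00000184363.10, chr11:392614-404908, plus strand) encodes plakophilin 3, found in desmosomes of most epithelia. Its level was 119, 126, 129, 117 and 137 CPM in control, 120.5, 118.5, 134, 131 and 142 CPM with PS20 and 137, 159, 153, 153 and 148.5 CPM with PS80, in replicates 1 to 5. The PS80 libraries were the high ones, and only PS80 replicate 1 fell inside the control range. PKP3 rose 1.196-fold with PS80, from 126 ± 8.14 to 150.2 ± 8.21 CPM (0.26 ± 0.06, adjusted p = 0.00234 by edgeR). With PS20 its log2 difference was 0.042 (95% interval -0.085 to 0.17, adjusted p = 0.599 by edgeR). In replicates 1 and 2 alone the PS80 difference was 0.27 and did not pass (adjusted p = 0.104), where the other settings gave 0.000288 to 0.0197.

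PKP4 (ENSG00000144283.23, chr2:158456952-158682879, plus strand) encodes an armadillo protein of the p120-catenin family, also called p0071, that is found at adherens junctions and desmosomes. Its level was 245, 266, 273.5, 260.1 and 266 CPM in control, 207, 205, 199, 199 and 188 CPM with PS20 and 237, 243, 244.5, 243.5 and 239.5 CPM with PS80, in replicates 1 to 5. The 3 groups did not overlap, and PS80 lay in a narrow band between the other groups, its highest library at 244.5 CPM and the lowest of control at 244.7 CPM. PKP4 was 1.31-fold lower with PS20, at 199.6 ± 7.27 against 262 ± 10.8 CPM (-0.39 ± 0.043, adjusted p = 2.41e-07 by edgeR). With PS80 it was 1.09-fold lower (-0.12 ± 0.043, adjusted p = 0.0369 by edgeR), a call that ended when any library of the 2 groups other than control replicate 1 was left out (adjusted p from 0.0515 to 0.076, and 0.0113 without control replicate 1). It also ended with upper quartile factors (0.0519), with no filter on low counts (0.388), in a fit of the 2 groups alone (0.0554), with PS80 replicate 2 as the only PS80 library (0.379) and in replicates 1 and 2 alone (0.569), over a range of 0.00788 to 0.569 in the settings run.

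Within libraries, PKP2 fell relative to PKP3 with both emulsifiers. The log2 ratio of PKP2 to PKP3 reads was 2.20 ± 0.12 in control, 1.74 ± 0.10 with PS80 and 1.44 ± 0.07 with PS20 (mean ± SD, n = 5). The 3 groups did not overlap, and each of the 3 differences (-0.76 for PS20 against control, -0.45 for PS80 against control and 0.30 for PS80 against PS20) had an exact permutation p of 0.00794, or 0.0159 adjusted over 12 tests. In replicates 1 and 2 these differences were -0.66, -0.46 and 0.20, and in replicates 3 to 5 they were -0.82, -0.45 and 0.37. Per kilobase of exon, PKP2 made up 48.1% ± 1.91 of the 3 plakophilin mRNAs in control, 38.3% ± 1.35 with PS20 and 43.0% ± 1.59 with PS80, and PKP3 made up 28.4% ± 1.33, 38.2% ± 1.33 and 34.7% ± 1.24 (SD, n = 5). The ratio of PKP2 to PKP4 reads fell by 0.33 on the log2 scale with PS20 (exact permutation p = 0.0238, adjusted 0.0357), with overlap between the groups. That call ended when control replicate 1, 4 or 5 or PS20 replicate 1, 2, 3 or 4 was left out (adjusted p of 0.0635 to 0.0714 over these exact permutation tests). With 1 library fewer, the smallest p that such a test can give is larger.

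**Figure D2:**
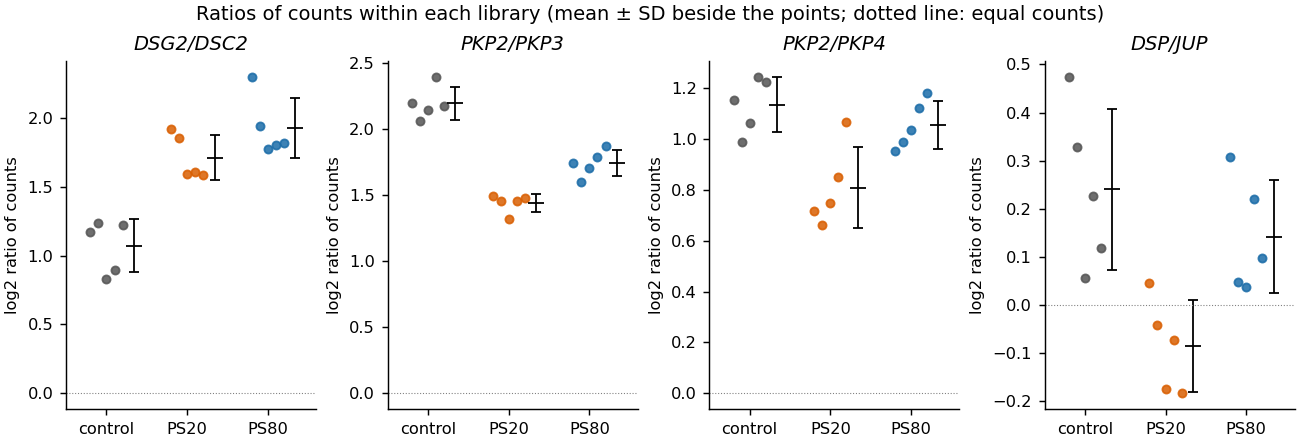
The vertical axis is the log2 ratio of the read counts of a pair of members in the same library, each point is 1 library, the mean ± SD of each group of 5 stands beside its points, and the dotted line marks equal counts. For DSG2/DSC2 both exposed groups lie above control, and for PKP2/PKP3 the order from high to low is control, PS80, PS20 with no overlap.

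Of the plakins among the members, DSP and PPL fell with PS20 and neither passed with PS80, and EVPL was barely detected. DSP (ENSG00000096696.15, chr6:7541617-7586714, plus strand) encodes desmoplakin, the link to keratin. Its level was 977.5, 995, 848, 893 and 860.3 CPM in control, 823, 757, 722, 762 and 719 CPM with PS20 and 898, 866, 819, 933 and 832 CPM with PS80, in replicates 1 to 5. Every PS20 library was below every control library, the highest control libraries were replicates 1 and 2, and PS80 overlapped both other groups. DSP was 1.21-fold lower with PS20, at 757 ± 42.3 against 915 ± 67.7 CPM (-0.27 ± 0.055, adjusted p = 0.000316 by edgeR). With PS80 the difference was -0.073 (95% interval -0.19 to 0.041, adjusted p = 0.324 by edgeR). Against JUP, the other abundant plaque protein, DSP also fell within libraries with PS20: the log2 ratio of DSP to JUP reads went from 0.24 ± 0.17 to -0.085 ± 0.096 (n = 5, exact permutation p = 0.00794, adjusted 0.0159), and it was 0.14 ± 0.12 with PS80. The PS20 difference was -0.40 in replicates 1 and 2 and -0.28 in replicates 3 to 5.

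PPL (ENSG00000118898.16, chr16:4882507-4960741, minus strand) encodes periplakin. Its level was 177, 198, 194, 180.4 and 181 CPM in control, 154, 148, 146, 151 and 142 CPM with PS20 and 169.9, 195, 183.5, 187 and 178 CPM with PS80, in replicates 1 to 5. The PS20 libraries lay below all others, and the PS80 and control libraries overlapped. PPL was 1.26-fold lower with PS20, at 148 ± 4.64 against 186 ± 8.995 CPM (-0.33 ± 0.05, adjusted p = 1.45e-05 by edgeR), and with PS80 the 95% interval of its log2 difference was -0.13 to 0.075 (adjusted p = 0.718 by edgeR). DSP and PPL kept their proportion per kilobase. Of the mRNA of DSP, PPL and EVPL together, DSP made up 73.9% ± 1.62 in control, 74.6% ± 0.551 with PS20 and 73.3% ± 1.44 with PS80 (SD, n = 5). These ranges overlapped, and plakins outside the 10 members were not included. EVPL (ENSG00000167880.8, chr17:76004502-76027306, minus strand), which encodes envoplakin, had 0, 0, 0, 1 and 2 reads in the control libraries, 4, 1, 4, 3 and 3 with PS20 and 1, 3, 0, 2 and 2 with PS80. These counts were under the filter, so EVPL was not tested. Its reads summed to 3 in control, 15 with PS20 and 8 with PS80. For scale, 3 reads over a whole group, the limit that a count of 0 allows, would be 0.0766 CPM in control, 0.0617 with PS20 and 0.033 with PS80. No group had a count of 0, so this limit is not a bound on EVPL.

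PERP (ENSG00000112378.12, chr6:138088505-138107419, minus strand), the membrane protein of the group and a known target gene of p53 and p63, fell with both emulsifiers. Its level was 616.5, 617, 679.6, 627 and 649 CPM in control, 455, 554, 493, 458 and 496 CPM with PS20 and 478, 507, 541, 512 and 527 CPM with PS80, in replicates 1 to 5. Every exposed library was below every control library, and PS20 and PS80 overlapped. PERP was 1.298-fold lower with PS20, at 491 ± 39.8 against 638 ± 26.7 CPM (-0.38 ± 0.054, adjusted p = 7.05e-06 by edgeR). With PS80 it was 1.24-fold lower, at 513 ± 23.7 CPM (-0.31 ± 0.053, adjusted p = 0.000146 by edgeR). TP63, the gene of p63, had 1 read over the 15 libraries together.

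PS20 and PS80 share a polyoxyethylene sorbitan head and carry different fatty acids, mainly laurate in PS20 and oleate in PS80. They were given at the same percentage for the same time, so their libraries were compared directly as 1 pair. Of the 9 tested members 5 were higher with PS80 than with PS20 (PKP2, PPL, PKP4, PKP3 and DSP) and 0 were lower, against 35.4% of all tested genes called (18.2% higher and 17.2% lower). With upper quartile factors the split over all genes was 1872 higher and 2704 lower in place of 2324 and 2202, and the same comparison gave 5 members higher and 1 lower, DSC2. The PS80 and PS20 libraries did not overlap in 3 members, all higher with PS80, against 22.7% of all tested genes (11.7% higher and 11.0% lower). PKP2 was 1.44-fold higher with PS80 (0.52 ± 0.061, adjusted p = 1.74e-06 by edgeR), and no PS80 library reached down to the PS20 range. PPL was 1.23-fold higher (0.30 ± 0.049, adjusted p = 7.08e-05) and PKP4 1.21-fold higher (0.28 ± 0.043, 4.33e-05), also without overlap. PKP3 and DSP were higher by 0.22 and 0.20 on the log2 scale (adjusted p = 0.00703 and 0.00682 by edgeR), with overlap. The difference in DSP was 0.20 with PS80 replicate 2, the PS80 library counted like the others, as the only PS80 library, and did not pass (adjusted p = 0.139 by edgeR, against 0.00031 to 0.229 over all settings). Within libraries the log2 ratio of PKP2 to PKP4 was higher with PS80 by 0.25 (exact permutation p = 0.0317, adjusted 0.0423) and that of DSP to JUP by 0.23 (0.0159, adjusted 0.0272), both with overlap. Of the 10 fits that leave out 1 library, the first call held in the one without PS20 replicate 5 (the others gave an adjusted p of 0.0635 to 0.0847), and the second ended without PS20 replicate 2, 3 or 4 (adjusted p = 0.0544 in exact permutation tests). Such tests cannot reach as small a p with 1 library fewer. In replicates 1 and 2 alone only PKP2 passed (0.51, adjusted p = 0.00233 by edgeR).

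Of the 3 members that changed the same way with both emulsifiers and overlapped control with neither, PKP4 differed between the emulsifiers as given, and DSG2 and PERP did not pass. The PKP4 call with PS80 against control was lost in 9 of the 10 fits that leave out 1 library. Its highest PS80 library was at 244.5 CPM and its lowest control library at 244.7 CPM. The log2 difference of PS80 from PS20 was -0.006 for DSG2 (95% interval -0.12 to 0.10, adjusted p = 0.946 by edgeR). For PERP it was 0.063 (95% interval -0.048 to 0.17, adjusted p = 0.384 by edgeR), and it passed in replicates 3 to 5 alone (0.12, adjusted p = 0.026 by edgeR, against 0.026 to 0.882 over all settings). The interval was -0.12 to 0.073 for JUP and -0.42 to -0.026 for DSC2 (adjusted p = 0.722 and 0.072 by edgeR). DSC2 passed this comparison without PS80 replicate 5 (adjusted p = 0.0363 by edgeR, against 0.0139 to 0.195 over all settings). Summed over the 10 members, the level was 3546 to 3673 CPM in control, 3309 to 3574 with PS80 and 3061 to 3115 with PS20, so the PS20 libraries lay below all others. The sum is not per length and comes mostly from DSP, JUP, PERP and PKP2, which averaged 915, 773, 638 and 577 CPM in control. It does not describe each member: DSG2 rose with PS20, and JUP, PKP3 and DSC2 did not pass.

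**Figure D3:**
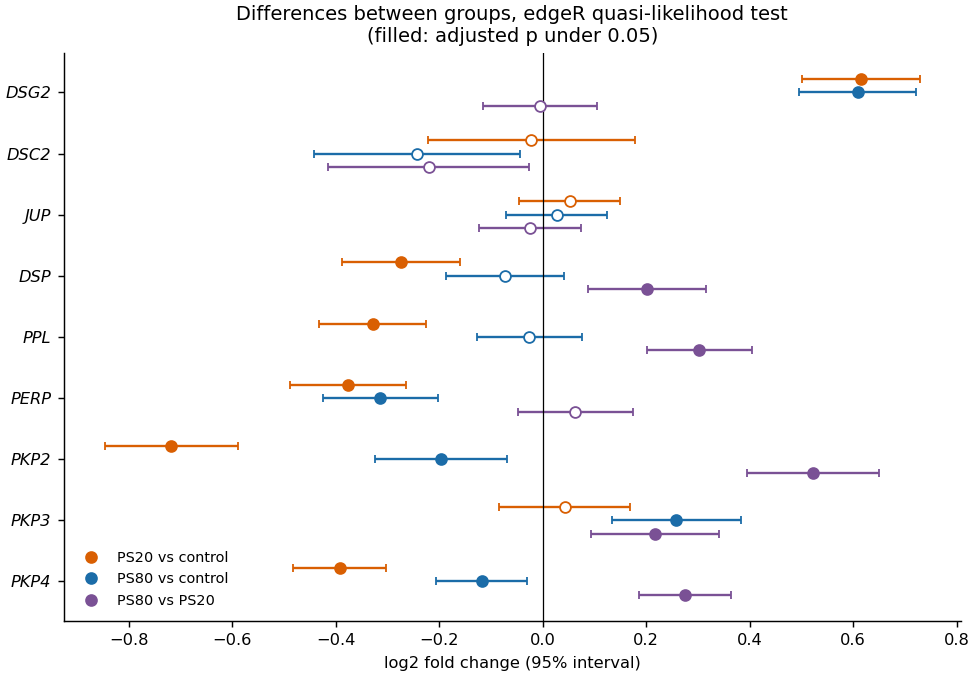
The horizontal axis is the log2 fold change of each tested member with its 95% interval, the 3 colours are the 3 comparisons, and filled points passed at an adjusted p under 0.05. DSG2 stands to the right near 0.6 for both emulsifiers and at 0 between them, and PKP2 stands at -0.72 for PS20 and at -0.20 for PS80.

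Levels of different genes were compared per length, as CPM per kilobase of the exon length in the count files. That length joins all annotated exons of a gene, such as 12501 bases for DSC2 and 3795 for PKP3. It can exceed the length of the mRNA present, which was not measured. The order below and the shares per kilobase given above depend on it. In control the order was JUP (156 ± 8.74 CPM per kilobase), PERP (152 ± 6.38), DSP (68.6 ± 5.08), PKP2 (56.2 ± 4.09), PKP3 (33.1 ± 2.14), PKP4 (27.5 ± 1.13), PPL (24.2 ± 1.17), DSG2 (11.3 ± 0.577) and DSC2 (4.1 ± 0.512), each SD over 5 libraries, and EVPL last. JUP and PERP overlapped in control, as did PKP4 and PPL, and all other neighbours in the order were separated. The order of the means was the same with PS20 and with PS80, but the steps between neighbours changed. With PS20 JUP (162 ± 3.07) and PERP (117 ± 9.46) no longer overlapped, and PKP2 (34.1 ± 2.7) and PKP3 (34.03 ± 2.55) did. With PS80 JUP (159 ± 8.32) and PERP (122 ± 5.63) did not overlap either, and PKP2 (49.0 ± 3.35) stayed above PKP3 (39.6 ± 2.16) without overlap. The per-length level of the cadherins was the lowest of the detected members in every group, with DSG2 at 17.3 ± 0.968 CPM per kilobase with PS20 and 17.2 ± 0.866 with PS80, and DSC2 at 4.01 ± 0.274 and 3.47 ± 0.503. Reads were counted without regard to strand, and 1.96% of DSG2, 4.13% of PKP2 and 4.38% of PKP4 exon bases lie in other genes, with DSG2-AS1 and PKP4-AS1 among them.

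**Figure D4:**
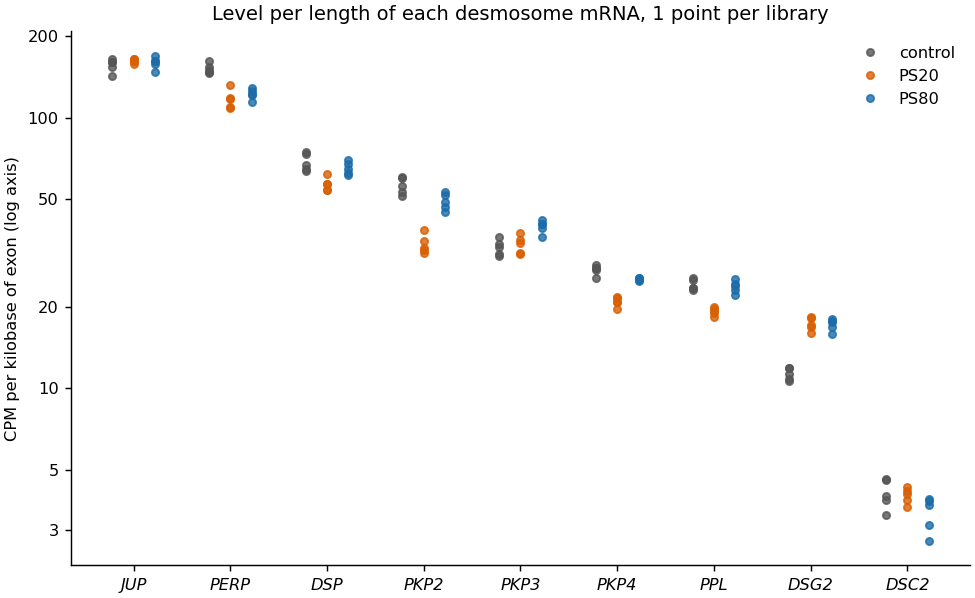
The vertical axis is the level in CPM per kilobase of exon on a log axis, members are ordered by their control mean, and each point is 1 library of the group its colour gives. JUP and PERP lead at 108 to 170 CPM per kilobase, DSC2 is lowest at 2.74 to 4.63, and EVPL is left out because libraries had 0 reads.

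The keratins and the proteins that join filaments to junctions are the next step inward from the desmosome. Of 13 such genes 8 were tested, and with PS20 6 were lower and 2 higher, against 48.3% of all tested genes called (median log2 fold change -0.43, against 0.011 for all tested genes). With PS80 1 was lower and 2 were higher, against 33.4% of all tested genes (median -0.078, against 0.002), and between PS80 and PS20 6 were higher and 0 lower with PS80, against 35.4%. KRT8, the type II keratin of simple epithelia, was at 4426 ± 565 CPM in control, 2678 ± 189.6 with PS20 and 3948 ± 199 with PS80 (log2 fold change -0.73 with PS20, adjusted p = 6.49e-08 by edgeR, and -0.17 with PS80, 0.08). Its type I partner KRT18 was at 1822 ± 251, 1195 ± 73.1 and 1790 ± 81.3 CPM (-0.61 with PS20, 7.2e-07). Reads of KRT8 and KRT18 can be shared with their processed pseudogenes, so their levels are uncertain. KRT19 (log2 fold change -0.50) and the linker dystonin, DST (-0.61), had the same adjusted p with PS20 (5.42e-06), and DST was also lower with PS80 (-0.27, 0.0141 by edgeR).

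Plectin, PLEC, a plakin that binds keratin at hemidesmosomes and in the cytoplasm, went the other way. It rose from 169 ± 15.02 to 218 ± 9.46 CPM with PS20 and 217 ± 19.6 CPM with PS80 (0.37 and 0.36 on the log2 scale, adjusted p = 8.41e-05 and 0.000261 by edgeR). PNN, pinin, a nuclear protein first described at desmosomes, was higher with PS80 than with PS20 by 0.39 on the log2 scale (4.89e-05). KAZN, a periplakin-binding protein named after its values were seen because it led the list in log2 fold change, was at 1.71 ± 0.568, 3.54 ± 1.09 and 4.07 ± 0.693 CPM, and 24.91% of its exon bases lie in other genes. KRT20 and KRT23 had 0 reads in all libraries.

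Of 20 genes listed as possible desmosome regulators (kinases, sheddases, transcription factors, calcium pumps and others) 19 were tested, and with PS20 7 were higher and 5 lower, against 48.3% of all tested genes called. With PS80 6 were higher and 1 lower, against 33.4%, and PS80 against PS20 gave 6 and 2, against 35.4%. ST14, matriptase, a membrane protease of epithelia, was at 609 ± 28.3 CPM in control and 462 ± 41.6 with PS20 (-0.40, adjusted p = 1.5e-05 by edgeR). GRHL2, a transcription factor of epithelial junction genes, was lower with PS20 (-0.35, 0.000809), and ZDHHC5, a palmitoyltransferase, was higher (0.25, 0.000282). The arginine methyltransferase PRMT1 was lower with PS20 (-0.22) and higher with PS80 (0.27), and it differed between them by 0.49 (adjusted p = 4.95e-07 by edgeR). EGFR, the epidermal growth factor receptor, and the kinase PRKCD were higher with PS80 by 0.26 and 0.23 on the log2 scale (adjusted p = 0.00555 and 0.00514 by edgeR).

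All 14 adherens junction genes listed, which encode the neighbouring actin-linked junction, were tested. With PS20 2 were higher and 6 lower, against 48.3% of all tested genes called (median -0.031). With PS80 3 were higher and 1 lower, against 33.4% (median 0.015), and PS80 against PS20 gave 5 and 1, against 35.4% (median 0.061). PLEKHA7, which anchors microtubules at this junction, was at 50.7 ± 3.04 CPM in control, 30.1 ± 3.14 with PS20 and 42.5 ± 3.61 with PS80 (-0.74 with PS20, adjusted p = 1.57e-07 by edgeR). Vinculin, VCL, was lower with PS20 (-0.35) and higher with PS80 (0.27), and alpha-catenin, CTNNA1, was lower with PS20 (-0.31, adjusted p = 5.95e-06 by edgeR). CDH3, P-cadherin, was higher with both (0.26 and 0.19). NECTIN2 was lower with PS20 (-0.18, adjusted p = 0.0181 by edgeR) and higher with PS80 (0.23, 0.00651 by edgeR).

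**Figure D5:**
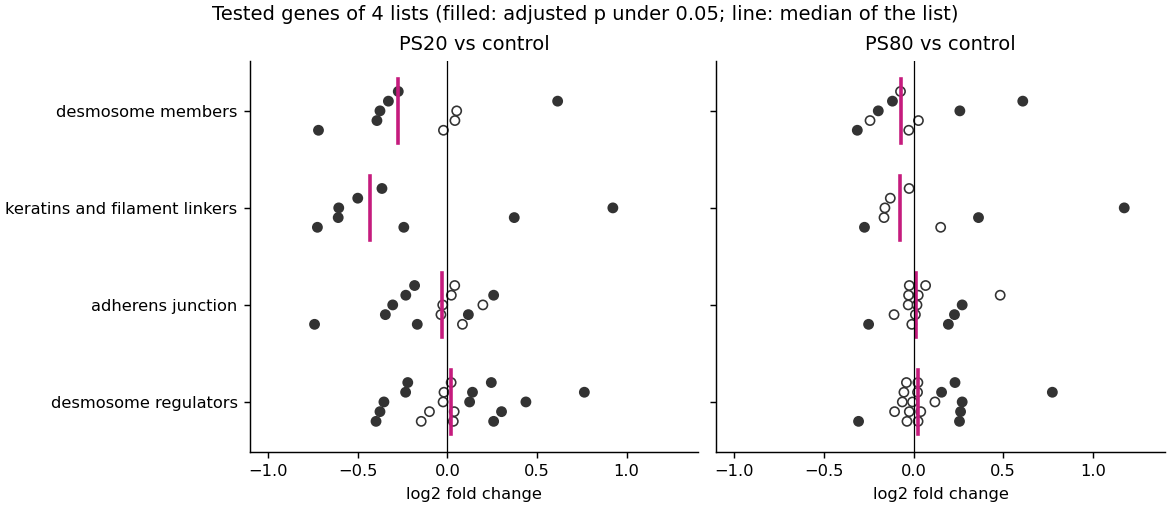
The horizontal axis is the log2 fold change, each point is a tested gene of the list at the left, filled points passed at an adjusted p under 0.05, and the coloured line is the median of the list. With PS20 the medians of the desmosome genes and of the keratins and linkers stand at -0.27 and -0.43, and with PS80 all 4 medians lie between -0.08 and 0.03.

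For the members with the highest and the lowest log2 fold change with PS20, the genes with the most similar pattern were sought over the 15 libraries, as the Euclidean distance between mean-centred log2 CPM values. Among 10037 other genes with a mean of at least 5 CPM, the nearest to DSG2 were KLF6, a zinc finger transcription factor (distance 0.35), CPNE2, a copine (0.36), and IARS1, the cytosolic isoleucyl-tRNA synthetase (0.37), where the median distance was 1.32. The nearest to PKP2 were CAPN2, a subunit of calpain 2 (0.27), LEPROT (0.28) and RRM2, a ribonucleotide reductase subunit (0.30), where the median was 1.36. These distances describe the 15 libraries, which share their group differences and their depth, and carry no test.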

How the data were processed

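The deposited files give raw read counts for every gene, 1 file a library. They were made with featureCounts (2.0.0 or 2.0.3), GENCODE release 42, a mapping quality minimum of 10 and no strand or pair option, per the file headers. The submitters' processing notes name cutadapt, STAR 2.7.9a, DESeq2 1.32.0 and GRCh38. Symbols were matched by gene ID for 62625 of 69215 genes. The 10 members and all gene lists were chosen with earlier results of these data known. Genes were kept by filterByExpr (minimum count 10, minimum total 15), which left 12769, and fitted in edgeR 4.0.16 (R 4.3.3) with 1 term per group over 15 libraries, scaled by trimmed mean of M-values factors of 0.978 to 1.02. The common biological coefficient of variation was 8.91%. Of each other list, up to 3 genes with the smallest p among those that passed and had a mean of at least 5 CPM were named. Ratios used log2 of counts plus 0.5 and exact permutation tests in Python 3.11.15. The scripts were tested on simulated data. The limit given for a count of 0 covers counting error only.

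Replicate numbers in the titles are shared between groups. The main tests did not pair libraries in any comparison, and pairing by replicate number was run as an alternative in each. The deviations of same-numbered PS80 and control libraries from their group means correlated by 0.102 to 0.304 in all 5 pairs. PS80 replicates 2, 3 and 4 correlated best with the control library of their own number, and replicates 1 and 5 with another. For PS20 and control the correlations were -0.0264 to 0.248. PS20 replicates 1, 2, 3 and 5 correlated best with their own control number, and replicate 4 with another. For PS80 and PS20 the correlations were 0.0741 to 0.29. PS80 replicates 1, 3 and 5 correlated best with their own PS20 number, and replicates 2 and 4 with another. Alternatives were DESeq2 1.42.0, library totals, upper quartile factors, no filter, only the groups compared, the replicate block, parts of the replicates, and leaving out each library. Of 6 squamous markers 1 (LOR) was matched to no row and was not used here.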

Additional observations from a re-analysis of the deposited data

Results flagged for a closer look

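Values that stood apart within a group of 5 libraries were sought in 42 groups (the 10 members and 4 ratios in 3 conditions), where chance gives about 1 in 20, and 2 were found. EVPL in control was 0.273 CPM in replicate 5, which is 2 reads, while the other 4 control libraries had 0 or 1 read. The log2 ratio of PKP2 to PKP3 reads with PS20 was 1.316 in replicate 3, below a group median of 1.459 and a highest value of 1.493, and all 5 PS20 libraries lay below all control and PS80 libraries.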

How the results depend on the processing

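All 6 calls with PS20 against control (DSG2, PKP2, PKP4, PERP, PPL and DSP) were kept under every alternative run, and no fold change of a called member reversed. Of 504 member fold changes under the alternatives 467 kept their side of the threshold, 25 lost a call and 12 gained one. Replicates 1 and 2 alone gave 3116 genes with PS20 against control, 2025 genes and 2 members with PS80 against control, and 1397 genes and 1 member with PS80 against PS20. These fits hold fewer libraries. With PS80 replicate 2 as the only PS80 library 2816 genes passed against control and 2351 against PS20, and the lone library is assumed to vary like the other groups. Leaving out 1 library at a time, 3 to 5 members passed with PS80 against control, 5 to 6 with PS80 against PS20 and 6 with PS20 against control. With the replicate number as a block, 6 members passed in each comparison, DSC2 being the one added with PS80 against control (-0.23, adjusted p = 0.00891 by edgeR) and against PS20 (-0.21, 0.0139), and it changed no other member's call. For all genes the block gave 6871, 5160 and 5452 calls in place of 6164, 4266 and 4526. Paired by replicate number, the within-library ratios kept their differences but 5 pairs cannot go below an exact p of 0.0625, so all 9 that had passed were at adjusted p = 0.0682: DSG2/DSC2 0.64 with PS20 and 0.86 with PS80, PKP2/PKP3 -0.76 with PS20, -0.45 with PS80 and 0.30 between them, PKP2/PKP4 -0.33 with PS20 and 0.25 between them, and DSP/JUP -0.33 with PS20 and 0.23 between them. Over all fits that leave out 1 library, with and without the call, the ratio differences ranged from -0.39 to -0.29 for PKP2/PKP4 with PS20, from 0.21 to 0.31 for PKP2/PKP4 between the emulsifiers, and from 0.19 to 0.26 for DSP/JUP between them. In the fits that lost the call they were -0.34 to -0.29, 0.21 to 0.27 and 0.205 to 0.238, the last without PS20 replicate 2, 3 or 4. The order of levels was the same with the unshared exon length. That length differs from the full one only in DSG2, PKP2 and PKP4 and by at most 4.38%, too little to test the order. Depth limits EVPL, whose counts of 0 to 4 reads allow no comparison.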
